A study of Mus musculus with 5 samples.

Results

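The cell cycle and DNA replication genes described here are 45 genes named by symbol, and 31 of them had a row among the 11065 rows of the liver gene table. They were divided by role into 14 genes of S phase and replication licensing, 7 genes of the G1 phase and 24 mitotic genes, of which 13, 5 and 13 had a row. The members with no row, which are named only, were Cdc6 among the S phase genes, Ccnd2 and Ccne2 among the G1 genes, and Foxm1, Birc5, Bub1, Bub1b, Kif11, Nusap1, Tpx2, Cenpe, Ect2, Anln and Hmmr among the mitotic genes. All 31 members with a row passed the filter on low values.

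Liver RNA was sequenced from db/db mice, which lack a working leptin receptor and become obese and diabetic. One group of 3 libraries came from mice given vehicle and the other, of 2 libraries, from mice given SR4 at 10 mg/kg body weight, in both cases by oral gavage over 5 weeks that followed an acclimatization of 1 week. SR4 is described in the series as a proton transporter that fatty acids activate. The db/db genotype is given for the series as a whole, so both groups carry it, and the labels used here give no age or sex and do not tie each library to a separate animal. The p-values below therefore reflect the spread among these 5 libraries, part or all of which may be technical. The deposited values were read counts brought to 1 common total of 25494249 per library, so the depth of each library is unknown. Normalised counts below are these values after TMM scaling, and fold changes are differences between group means of log2(value + 1). The added 1 draws those of genes with low values toward 0. A library near 0 can instead make them larger than the ratio of the group means. Ccnb1, for example, had means of 47.8 in vehicle and 18.1 in SR4, but a 5.32-fold change. Of 8 hepatocyte markers all had a row, and Alb, serum albumin, stood between 1612050 and 2200550 normalised counts in the 5 libraries.

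A cell that enters division first makes cyclins of the D and E classes, whose kinases release the E2F factors from the retinoblastoma proteins. E2F factors then drive genes that load the MCM helicase on replication origins and make deoxynucleotides, and later genes for chromosome separation are switched on in G2 and mitosis. Adult liver cells are mostly at rest and re-enter the cycle after injury or loss of tissue. Liver also holds macrophages, endothelial and stellate cells that can divide, and in whole tissue fewer dividing cells and less RNA per cell cannot be told apart.

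Most of the cell cycle genes were lower in the SR4 libraries, but the change of single genes did not pass the test, except for Tk1, which rose. Of 31 members, 29 had a log2 fold change below 0, against 51.1% of the 10542 genes tested, and 21 had one of -1 or lower, against 4.01%. The median log2 fold change was -1.04 for the 13 S phase genes, -0.62 for the 5 G1 genes and -1.80 for the 13 mitotic genes, and -0.01 for all genes tested. At a limma adjusted p under 0.05 only 1 member passed, Tk1, against 1.31% of all genes in either direction and 0.436% in the higher direction, and 0 members passed as lower, against 0.873%. The calls over all genes were 46 higher and 92 lower, and 37 and 135 with equal totals in place of TMM scaling. These background counts rest on single libraries as well: 8, 5 and 7 genes were called in all without vehicle 2, vehicle 3 and SR4 2, and 180 without SR4 1. At an unadjusted p under 0.05, 15 members (48.4%) were lower, against 11.1% of all genes, and 1 was higher, against 10.2%. Both SR4 libraries lay below all 3 vehicle libraries for 14 members, while 20.5% of all genes did so, and above them for 1, while 21.1% did so. These counts rest in part on the library SR4 1, most of all for the mitotic members. Without SR4 1 the median log2 fold change was -0.54 for the mitotic and -0.88 for the S phase members, against -0.0024 for all genes. Without SR4 2 these medians were -2.79 and -1.18, against -0.0046. Without vehicle 1, 2 and 3, the members lower at an unadjusted p under 0.05 numbered 9, 10 and 16. The shares of all genes in these 3 fits were 8.92%, 8.64% and 10.5%.

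**Figure D1:**
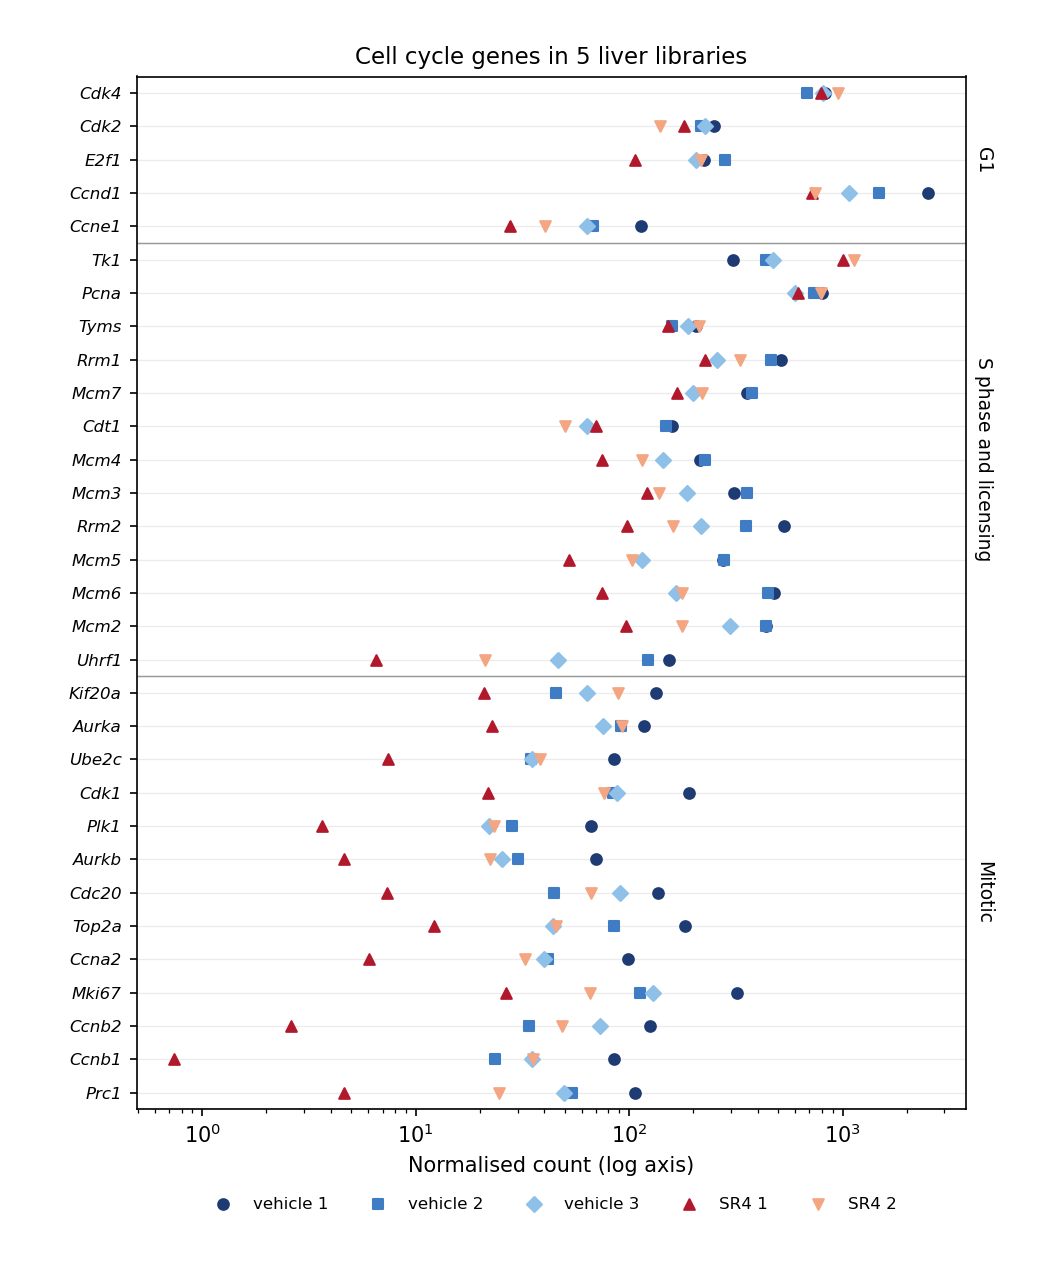
Normalised counts (log axis) of the 31 members in each of 5 liver libraries, with 1 symbol per library and genes grouped as G1, S phase and licensing, and mitotic. SR4 1 is the lowest library for all 13 mitotic genes, where vehicle 1 is the highest, while Tk1 is higher in both SR4 libraries than in the vehicle libraries.

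SR4 1 was the lowest library for most S phase and mitotic genes. The MCM genes of S phase and the mitotic genes differed in the order of the vehicle libraries. Vehicle 1 was the highest library for all 13 mitotic members, against 27% of all genes, and SR4 1 was the lowest for all 13, against 18.4%. Among the 13 S phase members vehicle 1 was the highest library for 7 and SR4 1 the lowest for 10. Over all 31 members SR4 2 was the lowest library for 2, against 28.4% of all genes. The summed level of the 13 mitotic members was 1718, 708 and 772 normalised counts in vehicle 1, 2 and 3, and 141 and 661 in SR4 1 and SR4 2. SR4 2 therefore lay just under the lower vehicle libraries, and SR4 1 well below them. The 6 genes of the MCM helicase, Mcm2 to Mcm7, summed to 2076 and 2125 in vehicle 1 and 2, 1108 in vehicle 3, and 588 and 929 in SR4 1 and SR4 2. SR4 1 was again the lowest library for all 6. Vehicle 2 was the highest library for 4 of the 6, against 11.9% of all genes, and vehicle 3 was nearer to the SR4 libraries than to the other vehicle libraries. Without SR4 1, the median log2 fold change of the mitotic members was -0.54 and that of the S phase members -0.88, and without SR4 2 they were -2.79 and -1.18. The difference between the S phase and the mitotic genes was not tested.

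**Figure D2:**
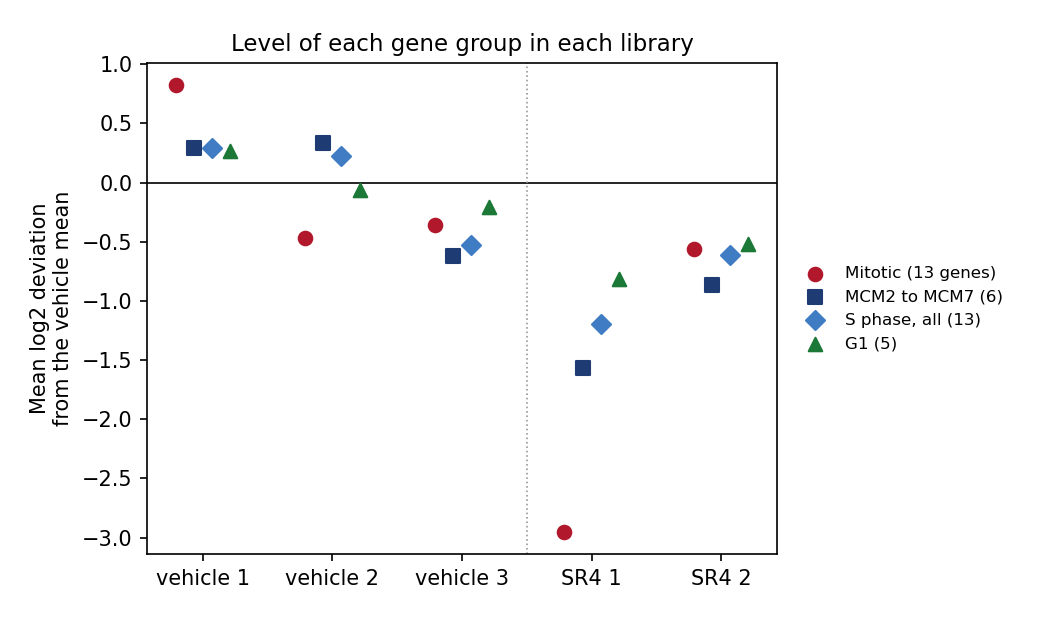
Mean log2 deviation from the vehicle mean in each library (axis in log2 units), averaged over the 13 mitotic, 6 MCM, 13 S phase and 5 G1 members. The mitotic mean runs from 0.82 in vehicle 1 to -2.95 in SR4 1, with SR4 2 at -0.56, while the MCM mean is below the vehicle mean in vehicle 3 (-0.62) and in both SR4 libraries (-1.57 and -0.86).

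Genes of the MCM helicase, which unwinds DNA at the replication fork, were lower in the SR4 group, and none passed over all genes. Mcm2 (chromosome 6, 88883474 to 88898780, GRCm38) had 440.1, 438 and 296 normalised counts in vehicle 1, 2 and 3, and 96.6 and 177 in SR4 1 and SR4 2. The groups did not overlap, and the log2 fold change was -1.55 (SE 0.30, limma adjusted p = 0.0657). Mcm6 (chromosome 1, 128331590 to 128359664) had 479, 449.5 and 166 in the vehicle libraries, and 74.5 and 177 in the SR4 libraries. Its vehicle 3 value lay between the SR4 values, so the groups overlapped (log2 fold change -1.51, SE 0.58, adjusted p = 0.212). Mcm5 had 275, 278 and 115 in vehicle, and 52.5 and 103 in SR4, with a log2 fold change of -1.48 (SE 0.48, adjusted p = 0.157). Mcm3 and Mcm4 also did not overlap between the groups, with log2 fold changes of -1.09 (SE 0.29) and -1.04 (SE 0.29). Mcm7 overlapped, with 310.2 ± 96.3 in vehicle (SD, n = 3) and 194 ± 35.4 in SR4 (SD, n = 2). The exons of Mcm7 overlap those of Ap4m1 and Cops6 on the other strand over 321 and 64 bases, and the counting is not stated to use strand. Cdt1, which loads the helicase on origins, had 159, 148 and 63.8 in vehicle, and 70.0 and 50.3 in SR4, and its groups overlapped (log2 fold change -0.94, SE 0.43, adjusted p = 0.272).

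Uhrf1, which guides DNA methylation to newly copied strands, was lower in both SR4 libraries than in any vehicle library. Uhrf1 (chromosome 17, 56303321 to 56323486) had 153, 123 and 46.3 normalised counts in the vehicle libraries, and 6.55 and 21.2 in the SR4 libraries. The log2 fold change of -2.90 (SE 0.67) was the lowest of all members with the 5 libraries and did not pass (limma adjusted p = 0.0860). Ccnb1 and Ccnb2 were below Uhrf1 without vehicle 2 (-2.81 and -2.85 against -2.72) and without SR4 2 (-4.61 and -4.26 against -3.68). Dnmt1, the methyltransferase that Uhrf1 recruits and a gene of the wider replication list, had 407, 328 and 295 in vehicle, and 195 and 156 in SR4. Those groups did not overlap either (log2 fold change -0.96, SE 0.19, adjusted p = 0.0657).

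Among genes of nucleotide supply and the replication clamp, Rrm2 was lower in both SR4 libraries, while Pcna and Tyms had mean differences near 0. Rrm2, the small subunit of ribonucleotide reductase made in S phase, had 532, 353 and 218 normalised counts in vehicle, and 97.6 and 161 in SR4. It did not overlap between groups, with a log2 fold change of -1.45 (SE 0.40, limma adjusted p = 0.122). Rrm1, the large subunit of the same enzyme, had 413 ± 137 in vehicle (SD, n = 3) and 280.2 ± 74.0 in SR4 (SD, n = 2), and the groups overlapped. Pcna, the sliding clamp of the DNA polymerases, had 711 ± 103 and 706 ± 126, a log2 fold change of -0.01 with a 95% interval from -0.42 to 0.39. Tyms, thymidylate synthase, had 184 ± 24.0 and 182 ± 42.8, a log2 fold change of -0.03 with an interval from -0.54 to 0.48. The sign of both turned without SR4 1, to 0.18 for Pcna and 0.21 for Tyms, and without vehicle 1, to 0.08 and 0.05, and that of Pcna also without vehicle 2, to 0.02. Pseudogenes named after Pcna and Tyms are annotated, so their reads could be shared with these copies.

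Tk1, the cytosolic thymidine kinase, was the single member that passed, and it rose. Tk1 (chromosome 11, 117815526 to 117826092, minus strand) had 306, 438 and 469.9 normalised counts in vehicle 1, 2 and 3, and 1007 and 1131 in SR4 1 and SR4 2. Both SR4 values lay above all vehicle values, with a 2.68-fold change (log2 fold change 1.42, SE 0.20, limma adjusted p = 0.0390). Afmid, the arylformamidase of the kynurenine pathway, lies beside it on the other strand (117825924 to 117839908), and their annotated exons share 83 bases. Afmid had 1631, 2802 and 3289.8 normalised counts in vehicle, and 9389.6 and 10437 in SR4, and rose 4.01-fold (adjusted p = 0.0448). Both genes were lowest in vehicle 1 and highest in SR4 2. Without strand, reads from the shared part cannot be assigned to either gene, and the part of Afmid reads in the Tk1 value was not tested. The call on Tk1 was lost without vehicle 2, vehicle 3, SR4 1 or SR4 2 (adjusted p = 0.0953, 0.0604, 0.0536 and 0.161), with a log2 fold change from 1.23 to 1.54 over the 5 fits that leave out 1 library.

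**Figure D3:**
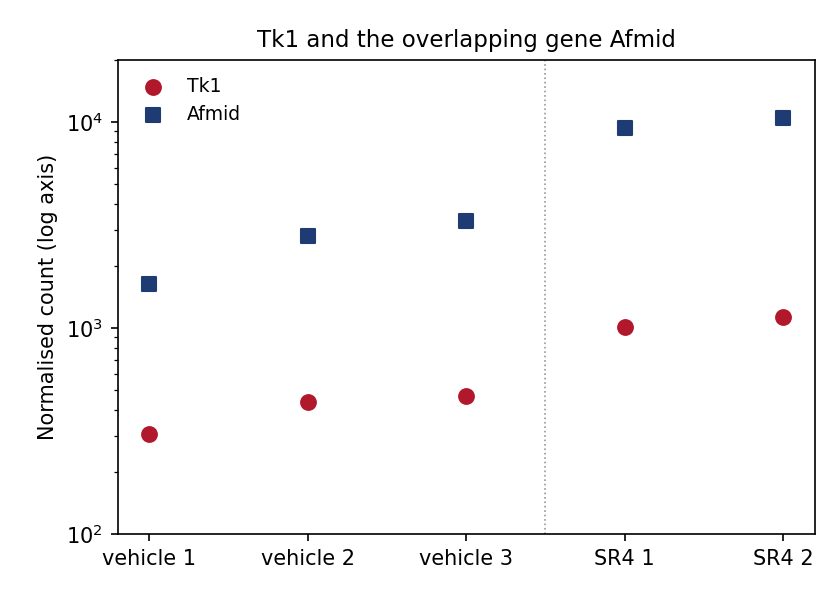
Normalised counts (log axis) of Tk1 and of Afmid, whose exons overlap on opposite strands, in each of 5 liver libraries. Tk1 lies between 306 and 469.9 in the vehicle libraries and at 1007 and 1131 in the SR4 libraries, and Afmid follows the same order of libraries.

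Among the G1 genes, the cyclins were lower in the SR4 group and the kinase Cdk4 was not. Ccnd1, cyclin D1, the growth-signal cyclin of hepatocytes, had 2523, 1485 and 1075 normalised counts in vehicle, and 719 and 744 in SR4. The SR4 libraries were alike and below every vehicle library, while vehicle 1 was 2.35 times vehicle 3 (log2 fold change -1.12, SE 0.34, limma adjusted p = 0.145). Ccne1, cyclin E1, which starts S phase with Cdk2, had 114, 67.9 and 63.7 in vehicle, and 27.7 and 40.3 in SR4 (log2 fold change -1.22, SE 0.37, adjusted p = 0.131). Cdk2 had 231 ± 15.8 in vehicle (SD, n = 3) and 160.1 ± 29.8 in SR4 (SD, n = 2), with no overlap (adjusted p = 0.161). Cdk4, the partner kinase of the D cyclins, had 775 ± 78.3 and 871 ± 112, a log2 fold change of 0.17 with a 95% interval from -0.16 to 0.50. E2f1, an activating E2F factor, had 224, 281 and 205 in vehicle and 107 and 218 in SR4, so that SR4 2 lay within the vehicle range. Per kb of merged exon, Ccnd1 had the highest vehicle level of all members, with 359.8 ± 158 normalised counts per kb (SD, n = 3), followed by Pcna with 296 ± 42.8 and Cdk4 with 238 ± 24.1. These levels per kb overlapped between neighbours in that order.

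**Figure D4:**
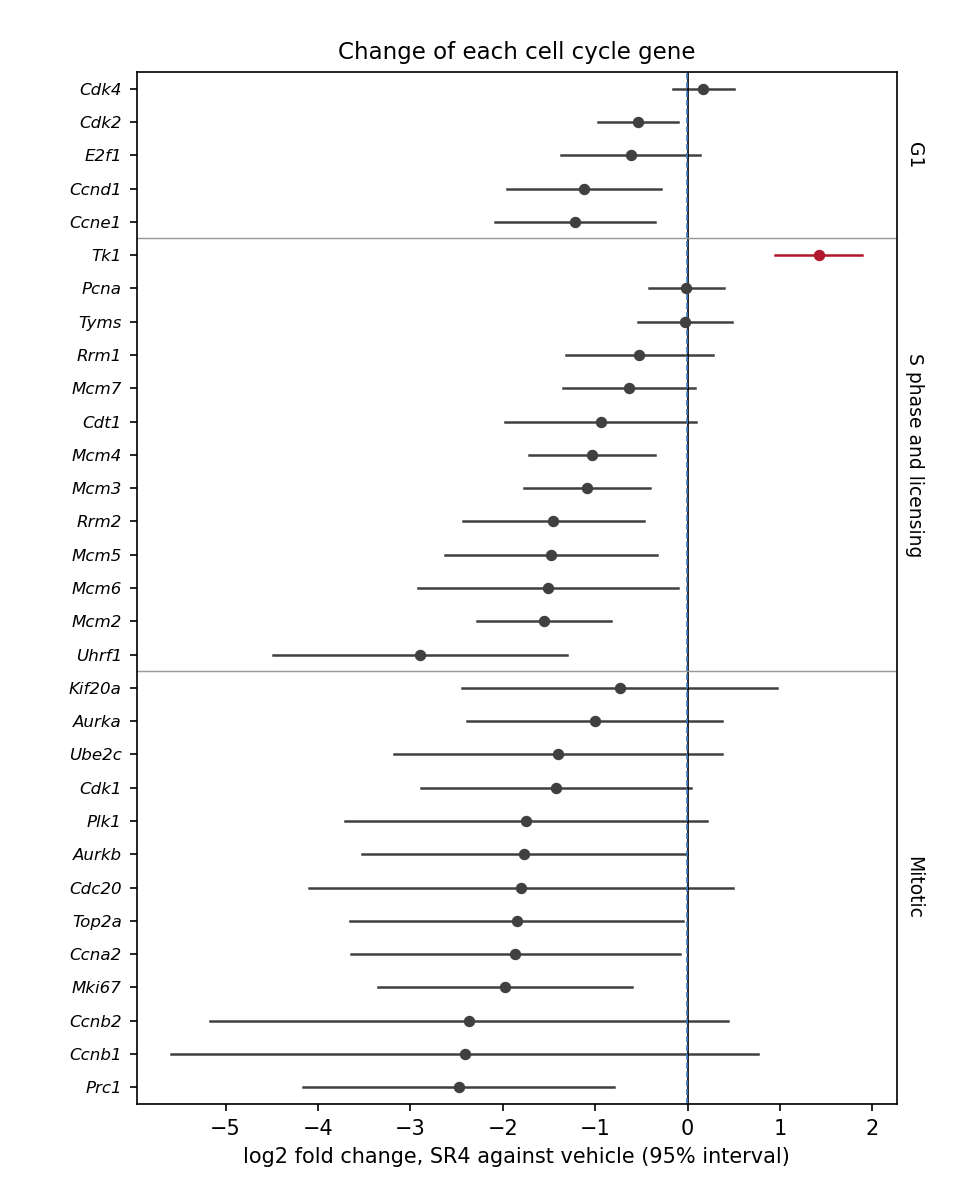
Log2 fold change of each member in SR4 against vehicle (points) with its 95% interval from limma (lines); the dashed line is the median of all genes tested at -0.01, close to the solid line at 0. Tk1, in red, is the single gene past the threshold after adjustment, and the widest interval is that of the mitotic gene Ccnb1, from -5.59 to 0.76.

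The 13 mitotic members were all lower in the SR4 group on average, 0 passed, and in 8 of them SR4 2 lay within the vehicle range. Mki67, a protein that coats mitotic chromosomes and the usual marker of dividing cells, had 322, 112 and 129 normalised counts in vehicle, and 26.6 and 65.6 in SR4. The groups did not overlap, and the log2 fold change was -1.97 (SE 0.57, limma adjusted p = 0.129). Prc1, which bundles the microtubules of the central spindle (chromosome 7, 80294450 to 80316259), had 106, 53.8 and 49.5 in vehicle, and 4.60 and 24.6 in SR4. The groups did not overlap, and the log2 fold change was -2.48 (SE 0.70, adjusted p = 0.121). Its exons overlap those of Rccd1 on the other strand over 911 bases, and Rccd1 had 53.6 ± 26.7 in vehicle (SD, n = 3) and 26.4 ± 7.47 in SR4 (SD, n = 2).

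Ccnb1 and Ccnb2 had the largest ratios between the SR4 libraries of all 31 members. Ccnb1, cyclin B1 (chromosome 13, 100778650 to 100786570), had 84.7, 23.5 and 35.2 normalised counts in vehicle, and 0.74 and 35.4 in SR4 1 and SR4 2. SR4 1 lay under 3 counts while SR4 2 was above 2 of the 3 vehicle libraries, and the log2 fold change of -2.41 had a 95% interval from -5.59 to 0.76. It was -0.21 without SR4 1, -4.61 without SR4 2 and -1.25 with a pseudocount of 10 in place of 1. Ccnb2, cyclin B2 (chromosome 9, 70407692 to 70421547), had 125, 33.9 and 73.4 in vehicle, and 2.61 and 48.5 in SR4. Pseudogenes named after Ccnb1 and Ccnb2 are annotated, so shared reads are possible. Ccna2, cyclin A2, which acts in S phase and G2, had 98.5, 41.6 and 40.0 in vehicle, and 6.03 and 32.4 in SR4, with no overlap but an adjusted p of 0.219. Cdk1, the kinase these cyclins activate, had 190.1, 84.0 and 87.8 in vehicle, and 21.8 and 76.7 in SR4 (log2 fold change -1.43, SE 0.61, adjusted p = 0.243).

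The other mitotic genes again had SR4 1 as their lowest library. Plk1, a kinase of centrosome maturation and mitotic entry, had 66.2, 28.3 and 22.1 normalised counts in vehicle, and 3.64 and 23.3 in SR4. Aurkb, the kinase of the chromosomal passenger complex, had 70.1, 30.1 and 25.4 in vehicle, and 4.61 and 22.2 in SR4, while Aurka, the spindle pole kinase, had 95.1 ± 21.4 in vehicle and 57.8 ± 49.6 in SR4 (SD, n = 3 and n = 2). Top2a, the topoisomerase that untangles sister chromatids, had 182, 84.9 and 44.1 in vehicle, and 12.2 and 45.4 in SR4. In all 4 genes SR4 1 was under every vehicle library, and SR4 2 was under every vehicle library for Aurkb alone. Cdc20, which activates the anaphase-promoting complex, and Ube2c, the conjugating enzyme of that complex, had 90.6 ± 46.1 and 51.6 ± 28.7 in vehicle, and 37.0 ± 41.9 and 22.9 ± 21.9 in SR4. Kif20a, a kinesin of cell separation, had 81.1 ± 47.0 and 54.9 ± 47.9, and its log2 fold change of -0.74 (SE 0.71) turned to 0.28 without SR4 1. Kif20a and Cdc23 share 1271 exon bases on opposite strands, and Cdc23 had 265 ± 12.5 in vehicle and 354 ± 46.8 in SR4. Exons on the other strand also overlap Ccna2 (Exosc9, 510 bases), Cdc20 (Elovl1, 53 bases), Cdk4 (Tspan31, 641 bases), Ube2c (Tnnc2, 592 bases) and Ccnd1 (LTO1, 1100 bases, with no row). Exosc9, Elovl1 and Tspan31 had 364 ± 44.4, 1323 ± 125 and 6466 ± 301 normalised counts in vehicle and 325 ± 42.4, 1496 ± 83.7 and 6653 ± 799.7 in SR4, and the share of their reads counted for the members was not tested. Tnnc2 had at most 3.19 normalised counts in any library, against at least 7.44 for Ube2c. Across the 13 mitotic members, SR4 2 was between 2.46 times (Mki67) and 47.9 times (Ccnb1) the SR4 1 value. For Mcm2 to Mcm7 this ratio ran from 1.14 for Mcm3 to 2.38 for Mcm6. Over all S phase members it ran from 0.72 for Cdt1 to 3.24 for Uhrf1. The largest ratios rest on low SR4 1 values, 0.74 for Ccnb1 and 2.61 for Ccnb2, while Mcm2 to Mcm7 had at least 52.5 in SR4 1. The part of these low values in the contrast was not tested.

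Promoter sequence, which the choice of members did not use, held different motifs in the S phase and the mitotic members. RefSeq windows of GRCm38.p6, from 250 bases before to 50 after the gene start, were at hand for 36 of the 45 members and 26 of the 31 with a row, with the first window taken where a gene had several. The motifs searched on both strands were TTTGAA, the letters of the cell cycle genes homology region that the MuvB complex binds, its variant TTCGAA, the CCAAT box bound by NF-Y, and the E2F letters TTTGGCGC and TTTCCCGC. TTTGAA was in 14 of 19 mitotic promoters (73.7%) and in 1 of 13 S phase promoters (7.69%), against 18.1% of 27025 gene promoters of the same length. Either E2F sequence was in 6 of 13 S phase promoters (46.2%) and 0 of 19 mitotic promoters, against 1.63% of all. CCAAT was in 16 of 19 mitotic and 9 of 13 S phase promoters, against 37.9% of all. TTCGAA was in 3 of 19 mitotic and 1 of 13 S phase promoters, against 1.57%. Among genes outside the 45, TTTGAA was in 30 of 44 mitotic promoters (68.2%) and 6 of 39 replication promoters (15.4%). Either E2F sequence was in 4 of these 44 mitotic promoters (9.09%) and 9 of these 39 replication promoters (23.1%), a smaller contrast than among the members. These are matches of letters, with no measurement of binding.

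Promoters are printed to show these motifs for the 3 members of each group that had a window and the lowest log2 fold changes. That order is over all 5 libraries and changes with single libraries. The promoter of Tk1 is printed as that of the member that passed. Each runs 5′ to 3′ from 250 bases before to 30 after the gene start, and capitals mark matches to the 5 motifs on either strand. The S phase promoters are those of Uhrf1 (chr17:56303087-56303366, plus strand), Mcm6 (chr1:128359676-128359955, minus strand) and Mcm2 (chr6:88898751-88899030, minus strand).
Uhrf1: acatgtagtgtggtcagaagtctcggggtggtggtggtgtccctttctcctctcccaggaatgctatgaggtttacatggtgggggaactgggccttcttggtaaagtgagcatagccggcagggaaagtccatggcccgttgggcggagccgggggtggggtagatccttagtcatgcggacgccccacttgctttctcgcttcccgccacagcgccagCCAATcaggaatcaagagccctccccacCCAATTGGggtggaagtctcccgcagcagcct
Mcm6: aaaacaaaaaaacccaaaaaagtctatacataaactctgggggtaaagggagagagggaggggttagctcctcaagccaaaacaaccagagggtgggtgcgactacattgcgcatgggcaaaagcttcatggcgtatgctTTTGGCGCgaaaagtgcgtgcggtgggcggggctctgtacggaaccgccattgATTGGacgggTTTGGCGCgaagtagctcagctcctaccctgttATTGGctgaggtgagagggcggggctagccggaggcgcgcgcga
Mcm2: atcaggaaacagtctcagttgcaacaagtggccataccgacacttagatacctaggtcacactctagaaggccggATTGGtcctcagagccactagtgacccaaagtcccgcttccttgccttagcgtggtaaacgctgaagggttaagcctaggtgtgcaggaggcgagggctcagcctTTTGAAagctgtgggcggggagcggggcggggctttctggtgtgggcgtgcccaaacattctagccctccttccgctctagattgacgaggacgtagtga
Mcm6 holds 2 copies of TTTGGCGC and 2 of CCAAT, read as ATTGG on the printed strand. Uhrf1 holds 3 matches to CCAAT, of which 2 overlap in CCAATTGG, and Mcm2 is the S phase member with TTTGAA.

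The mitotic promoters are those of Prc1 (chr7:80294201-80294480, plus strand), Ccnb1 (chr13:100786457-100786736, minus strand) and Ccnb2 (chr9:70421525-70421804, minus strand).
Prc1: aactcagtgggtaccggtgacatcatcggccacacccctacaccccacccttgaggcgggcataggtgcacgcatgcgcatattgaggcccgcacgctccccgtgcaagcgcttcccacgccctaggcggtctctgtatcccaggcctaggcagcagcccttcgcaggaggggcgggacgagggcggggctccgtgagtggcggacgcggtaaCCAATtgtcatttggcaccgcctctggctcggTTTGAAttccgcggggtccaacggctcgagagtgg
Ccnb1: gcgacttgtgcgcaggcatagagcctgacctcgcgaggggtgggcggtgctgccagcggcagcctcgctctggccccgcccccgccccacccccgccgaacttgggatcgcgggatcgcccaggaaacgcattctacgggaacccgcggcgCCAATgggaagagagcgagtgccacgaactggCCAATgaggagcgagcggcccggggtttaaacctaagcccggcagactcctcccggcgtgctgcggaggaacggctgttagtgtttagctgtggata
Ccnb2: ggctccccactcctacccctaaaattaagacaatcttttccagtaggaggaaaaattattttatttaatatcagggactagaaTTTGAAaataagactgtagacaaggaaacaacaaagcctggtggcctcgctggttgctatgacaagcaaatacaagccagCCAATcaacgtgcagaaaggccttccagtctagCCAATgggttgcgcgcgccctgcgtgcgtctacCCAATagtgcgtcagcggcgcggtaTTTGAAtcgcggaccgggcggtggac
Prc1 and Ccnb2 have CCAAT followed by TTTGAA close to the gene start, and Ccnb1 has 2 copies of CCAAT and none of TTTGAA in this window. The Tk1 window (chr11:117825985-117826264, minus strand) has no match to any of the 5 motifs.
Tk1: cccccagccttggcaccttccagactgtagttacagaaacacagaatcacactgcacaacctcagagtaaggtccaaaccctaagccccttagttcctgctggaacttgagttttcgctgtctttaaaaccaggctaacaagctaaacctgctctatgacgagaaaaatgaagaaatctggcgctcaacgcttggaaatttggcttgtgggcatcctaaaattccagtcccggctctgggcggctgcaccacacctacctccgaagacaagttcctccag
This whole Tk1 window lies inside the annotated span of Afmid.

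Other genes of the same pathways, listed beside the members, were less uniform. Of 49 further replication genes 35 had a row, 24 had a log2 fold change below 0 and 11 above, the median was -0.15, and 0 passed. Those with the smallest p were Dnmt1, above, and Chaf1a, a histone chaperone of replicated DNA, with 149 ± 18.6 normalised counts in vehicle and 80.5 ± 24.5 in SR4 (limma adjusted p = 0.119). Of 54 further mitotic genes 23 had a row, 19 were below 0 and 4 above, the median was -0.71, and 0 passed. Spc25, a kinetochore subunit, had 163 ± 47.3 in vehicle and 68.8 ± 2.46 in SR4 (adjusted p = 0.0905), and Nek2, a centrosome kinase, had 184 ± 49.9 and 84.3 ± 20.5 (adjusted p = 0.0993). At an unadjusted p under 0.05, 5 of the replication genes (14.3%) and 6 of the mitotic genes (26.1%) were lower, against 11.1% of all genes.

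Brakes on the cycle went both ways. Of 21 CDK inhibitors and related genes 18 had a row, with 8 above 0, 10 below, a median log2 fold change of -0.20 and 0 that passed. Rbl2, the retinoblastoma protein of resting cells, had 805 ± 82.5 normalised counts in vehicle and 1174 ± 34.4 in SR4 (limma adjusted p = 0.0780), and Wee1, the kinase that holds Cdk1 inactive, had 464 ± 16.1 and 339 ± 15.5 (adjusted p = 0.105). Among 15 measured of 23 other G1 regulators and E2F factors the median was -0.05 and 0 passed. Tfdp1, the partner of E2F factors in binding DNA, had 417 ± 17.1 in vehicle and 269.6 ± 24.9 in SR4 (adjusted p = 0.0677), and Ccnd3, cyclin D3, had 881 ± 88.5 and 1332 ± 202 (adjusted p = 0.0926). Ccnd3 and Ccnd1 thus had mean differences of opposite sign. Among 14 measured of 20 hepatocyte growth signals, with 10 below 0, 4 above and a median of -0.47, 1 fell, against 0.873% of all genes. It was Jun, a transcription factor of the early growth response, with 1766, 1046 and 1334 in vehicle and 554 and 515 in SR4, a 2.53-fold change (log2 fold change -1.34, SE 0.21, adjusted p = 0.0471). The call on Jun was lost without vehicle 2, vehicle 3, SR4 1 or SR4 2 (adjusted p = 0.0793, 0.105, 0.0768 and 0.194).

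Markers of other liver cells moved with parts of this pattern. The 9 stellate cell and fibroblast markers, all below 0, summed to 14013, 13928 and 8315 normalised counts in vehicle 1, 2 and 3 and to 8787 and 6634 in SR4. In this sum, to which Dcn gave the most, vehicle 3 thus lay between the SR4 libraries and SR4 2 was the lowest. For Col1a1, Col1a2 and Col3a1 both SR4 libraries were below vehicle 3, and for the other markers on this list vehicle 3 lay between them. In the sum of the MCM genes vehicle 3 was also near the SR4 libraries, but both of these were below it and SR4 1 was the lowest. The 9 measured of 10 macrophage and Kupffer cell markers, also all below 0, summed to 8356, 5177 and 6895 in vehicle and 4998 and 3622 in SR4, where SR4 2 and not SR4 1 was the lowest. The 8 endothelial markers summed to 4421, 4683 and 6169 in vehicle and 6067 and 3623 in SR4. None of these 3 lists had a member that passed, and none of their markers was at 0 in all libraries. The 6 measured of 8 erythroid markers were split, with 4 globin genes below 0, 2 genes above and a median log2 fold change of -0.75. Among them 1 fell, against 0.873% of all genes, the beta-globin gene Hbb-bs, from 2508 ± 284 in vehicle to 1115 ± 124 in SR4 (limma adjusted p = 0.0337). Above 0 were Alas2, an enzyme of heme synthesis (log2 fold change 0.23), and Klf1, an erythroid transcription factor, with 53.8, 121 and 155 in vehicle and 304 and 317 in SR4 (log2 fold change 1.62, adjusted p = 0.114). The 8 hepatocyte markers had 6 genes above 0, 2 below (Apoa1 at -0.47 and Ttr at -0.35) and a median of 0.24. Of these 1 rose, against 0.436% of all genes, Tat, an enzyme of tyrosine breakdown, from 27517 ± 7965 to 114738 ± 2983 (adjusted p = 0.0337). The 10 T and NK cell and 8 B and plasma cell markers had no row. Of 8 neutrophil markers 2 had a row, with sums from 15.1 to 41.8, and of 7 bile duct markers 2 had a row, with sums from 1014 to 3859 and vehicle 1 the highest. The part of these cells in the cell cycle differences was not tested.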

How the data were processed

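Liver RNA was sequenced in 5 samples, grouped by treatment label into 3 vehicle and 2 SR4 libraries. RNeasy Mini was used for extraction, per the labels' protocols, and libraries were made from total RNA with TruSeq RNA V2. Alignment software is listed as TopHat2 2.1.1 with Partek and the build as GRCm38 (mm10), per the submitters' processing notes. Sources used here do not give the counter, annotation, filters or adjustment. The deposited signal values were, from the values themselves, gene read counts adjusted to 1 library size: the 5 columns sum to 25494249 within 0.00074% and at least 96.5% of values in each are not whole (tolerance 0.001). They are not whole reads, so count-based tests were not used.

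In 17 rows, with 0.171% to 0.187% of a library, the symbol is a calendar date, and these were left out. Values were scaled by TMM factors (0.946 to 1.07, written out from the published method), and limma with a mean trend and robust shrinkage was fitted to log2(value + 1) over 10542 genes with a value of 10 or more in at least 2 libraries, with Benjamini-Hochberg adjustment over all of them at 0.05. The fit was checked on simulated whole counts with the same dispersion for all genes and no shift shared by genes of a library. That check does not cover the joint differences among libraries seen in the mitotic genes. Coordinates and exon lengths are from GENCODE M21 (GRCm38). The members, lists and alternatives were chosen with earlier results of these data known. Named genes are all members with a row, of each other list up to 4 that passed or else the 2 with the smallest p, and cell markers that passed. Afmid, Rccd1 and Cdc23 are named as genes whose exons overlap a member's, and Alb and the markers that did not pass were chosen after their values were seen. Intervals are 95%. R 4.3.3, limma 3.58.1, Python 3.11.15 and matplotlib 3.10.9 were used.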

Additional observations from a re-analysis of the deposited data

How the results depend on the processing

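All 13 alternatives that could be run were RLE scaling, equal totals, no filter, a filter of 1 CPM in 2 libraries, pseudocounts of 0.5 and 10, shrinkage without the robust option, a replicate block, and leaving out each of the 5 libraries; edgeR and DESeq2 on recovered reads were not run, since whole reads were not recovered. Of 520 values of 40 named genes, 497 kept their direction and their side of the threshold, 8 lost the call, 9 gained it and 6 turned direction; the 6 were Pcna, Tyms and Kif20a with 1 library left out, with log2 fold changes from -0.19 to 0.18, -0.27 to 0.21 and -1.75 to 0.28. With 1 library left out, the genes called, 138 with all libraries, ran from 5 to 180 (1 to 42 higher, 3 to 140 lower), members called from 0 to 1, members lower at an unadjusted p under 0.05 from 5 to 22, and genes called in the other lists from 0 to 1; medians ran from -2.79 to -0.54 for mitotic, -1.36 to -0.88 for S phase and -1.13 to -0.58 for G1 members. Leaving out an SR4 library assumes that the remaining one varies like the vehicle libraries. The replicate numbers pair 2 libraries of each group by name only (correlations of deviations 0.174 and 0.112). With the replicate block, 476 genes were called (193 higher, 283 lower), 8 members (Mcm2, Mcm3, Mcm4, Mcm5, Mcm7, Uhrf1 and Ccnd1 lower, Tk1 higher) and 6 genes of the other lists. A pseudocount of 10 gave medians of -1.25 for mitotic and -0.97 for S phase members, and one of 0.5 gave -1.84 and -1.04. Equal totals moved the median of all genes from -0.01 to -0.13, with 29 members again below 0. The unknown depth limits the precision of the mitotic genes, several of which lie under 10 normalised counts in SR4 1.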
